A study of Mus musculus with 12 samples.

Results

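The genes described here encode the subunits and assembly factors of the proteasome, measured by RNA-Seq in the cortex of aged E4FAD mice. They were taken from the raw count table as the protein-coding genes whose symbol is Psma, Psmb, Psmc, Psmd, Psme, Psmf or Psmg followed by a number. The rule found 50 genes of 50563 in the table, and 47 of them had enough counts to be tested, among 15688 genes tested. The question was whether transcripts of the constitutive proteasome and of the immunoproteasome differed between mice given DPAn-6 and controls. All 12 mice were E4FAD, with the genotype APOE4+/+ and 5FAD-/+, so that the controls too carried human APOE4 in place of mouse Apoe and were heterozygous for the transgenes of familial Alzheimer's disease. Vehicle was given to 7 CTRL mice (2 at 12 months and 5 at 14 months of age). The 5 mice named DPAn-6 (2 at 12 months and 3 at 14 months) received n-6 docosapentaenoic acid by daily oral gavage for 3 weeks. Both groups received antioxidants and held both sexes, which the sources give per group only. There was 1 library per mouse, and no mice without the transgenes are part of the comparison.

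The proteasome degrades proteins that carry ubiquitin chains. Its core particle is a stack of alpha and beta rings, and the beta ring holds the catalytic subunits Psmb5, Psmb6 and Psmb7. A regulatory particle of ATPases and non-ATPases binds, unfolds and feeds in the substrate. Interferon induces Psmb8, Psmb9 and Psmb10, which take the places of Psmb5, Psmb6 and Psmb7 in the immunoproteasome, and the activator subunits Psme1 and Psme2; in brain these are known mainly from microglia. The transcription factor Nfe2l1 raises subunit genes when proteasome activity is low, through antioxidant response elements in their promoters.

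The promoters of 4 genes that the results turn on are given here from RefSeq on GRCm38.p6, each from 250 bases before to 50 bases after the annotated start, on the strand of the gene. Psmb5 and Psmb8 are the pair whose transcript ratio differed most between the groups, Psmb9 is the immunoproteasome gene that starts beside Tap1, and Psma3 is a ring subunit whose groups did not overlap. Capitals mark a match to the core of an antioxidant response element (TGACNNNGC), to the core of an interferon-stimulated response element (GAAA, NN and GAAA in a row) or to a CCAAT box (CCAAT), on either strand. They lie at chr14:54617946-54618245 (minus strand), chr17:34197945-34198244 (plus strand), chr17:34187281-34187580 (minus strand) and chr12:70974373-70974672 (plus strand).
Psmb5: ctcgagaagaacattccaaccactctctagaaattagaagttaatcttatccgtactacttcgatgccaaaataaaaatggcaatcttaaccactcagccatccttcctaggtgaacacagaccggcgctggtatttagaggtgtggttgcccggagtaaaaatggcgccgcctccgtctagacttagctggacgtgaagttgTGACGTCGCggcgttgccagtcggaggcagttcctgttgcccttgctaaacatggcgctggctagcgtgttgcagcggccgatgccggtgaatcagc
Psmb8: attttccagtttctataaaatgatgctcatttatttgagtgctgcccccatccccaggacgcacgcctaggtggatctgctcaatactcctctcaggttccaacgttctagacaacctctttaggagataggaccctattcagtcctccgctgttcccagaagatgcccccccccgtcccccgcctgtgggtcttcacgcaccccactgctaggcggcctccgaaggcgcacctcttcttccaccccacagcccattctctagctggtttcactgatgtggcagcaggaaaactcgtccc
Psmb9: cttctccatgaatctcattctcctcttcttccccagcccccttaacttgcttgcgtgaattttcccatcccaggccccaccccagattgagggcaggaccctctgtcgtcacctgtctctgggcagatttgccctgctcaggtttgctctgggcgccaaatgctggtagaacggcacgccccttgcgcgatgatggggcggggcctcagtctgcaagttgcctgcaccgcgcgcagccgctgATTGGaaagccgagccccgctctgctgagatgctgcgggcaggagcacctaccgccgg
Psma3: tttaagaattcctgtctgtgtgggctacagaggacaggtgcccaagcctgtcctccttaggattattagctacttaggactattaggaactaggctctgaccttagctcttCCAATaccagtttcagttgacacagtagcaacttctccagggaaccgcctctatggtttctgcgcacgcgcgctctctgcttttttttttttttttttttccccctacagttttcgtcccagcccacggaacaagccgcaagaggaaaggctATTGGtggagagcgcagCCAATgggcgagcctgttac
The Psmb5 window held 1 match to the antioxidant response element core, the Psmb8 window held no match to any of the 3, the Psmb9 window held 1 CCAAT box and the Psma3 window held 3. In the gene annotation GENCODE M21, Psmb8 starts at chr17:34197721 and Psmb9 at chr17:34187764. Both starts lie upstream of these windows, and the sequence before them was not scanned. Promoter sequence was found for 42 of the 50 genes. The antioxidant response element core was in 6 of 42 (14.3%), against 14.0% of all 27025 promoters. The interferon element core was in 5 of 42 (11.9%), against 3.99% of all, and among the immunoproteasome genes only the Psme1 window held it. A CCAAT box was in 15 of 42 (35.7%), against 41.1% of all, and 5 of the 7 alpha ring genes had one. These matches are descriptions of letters in the window, and no factor's binding was measured.

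Library totals on genes were 15339098 to 19500154 counts in CTRL and 15208803 to 26520251 in DPAn-6. One library, CTRL 3, stood apart. It was the lowest of the 12 libraries for 28 of the 47 proteasome genes and the highest for 6, and its levels fell with the GC content of the transcript, by 0.50 on the log2 scale for each 10 percentage points of GC over all genes. GC content and length together took up 35.3% of the variance of its deviations. Psme2, Psmb5, Psmb4 and Psmb10 were low in this library, and Psme3 and Psmc6 were high. CTRL 2 was the lowest library for another 11 proteasome genes and had the highest level of Ttr, a gene of the choroid plexus. Values without CTRL 3 are therefore given beside those results that it moved most.

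**Figure D1:**
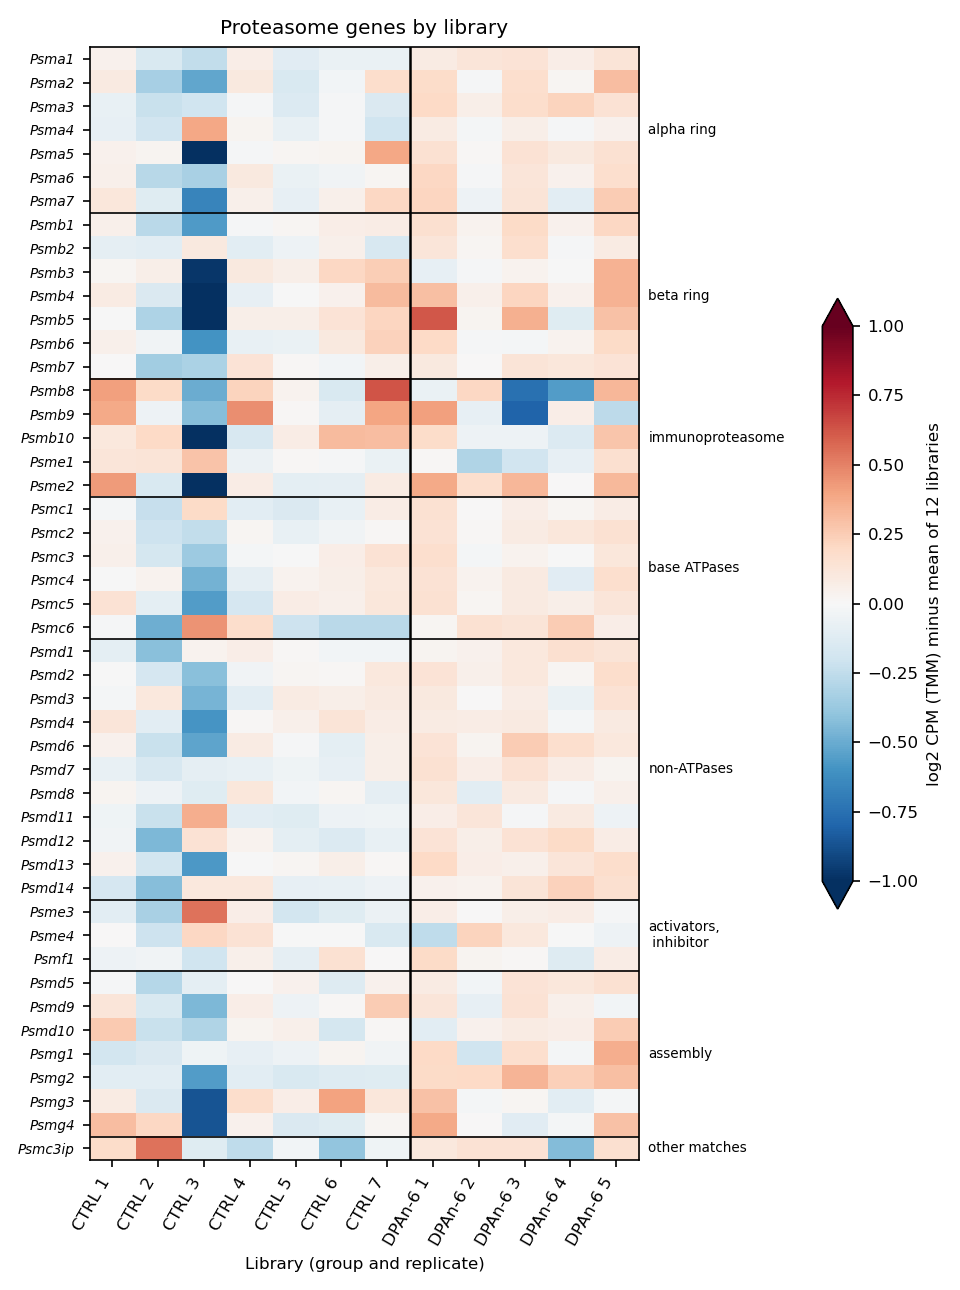
Each cell shows the log2 CPM (TMM-scaled) of 1 of the 47 tested proteasome genes in 1 of the 12 libraries, minus that gene's mean over all 12, with colours ending at 1 in both directions. CTRL 3 is the lowest library for 28 genes, and among the immunoproteasome genes Psmb8 and Psmb9 are low in DPAn-6 3.

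Genes of the core and regulatory particle had slightly higher mean levels in DPAn-6 mice than in CTRL mice. All 31 of them had a log2 fold change above 0, with a median of 0.14, whereas 48.7% of all genes tested had one above 0 and the median over all genes was -0.0047. The median change was below the median SD of these genes over all CTRL mice (0.196) and above that over the CTRL mice without CTRL 3 (0.108) and over the DPAn-6 mice (0.0753). Among the 47 genes, 1 passed an adjusted p of 0.05 in edgeR's quasi-likelihood test with Benjamini-Hochberg adjustment, and it was higher in DPAn-6; over all genes 1.55% were called, 0.408% higher and 1.14% lower. At an unadjusted p below 0.05, 7 of the 47 were higher, against 5.51% of all genes, and 0 were lower, against 9.02%. Genes of 1 complex tend to vary together between mice, so these counts are not of independent genes. Without CTRL 3, 30 of the 31 had a log2 fold change above 0 with a median of 0.13, against 50.0% of all genes; the exception was Psmb3, a beta ring subunit, at -0.06. Psmg2 and Psma3 were then called higher and 0 were called lower, against 6.1% of all genes called, 2.12% higher and 3.98% lower. At an unadjusted p below 0.05, 18 of the 47 were higher, against 10.7% of all genes, and 0 lower, against 12.5%. Leaving out CTRL 3 did not free these fold changes of a relation to GC content. Over the 31 genes, their correlation with transcript GC content was -0.54 without CTRL 3 and -0.11 with all mice. With the level of Ttr as a covariate, the median of the 31 was 0.083, and 2 of the 47 were higher at an unadjusted p below 0.05, against 2.07% of all genes.

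**Figure D2:**
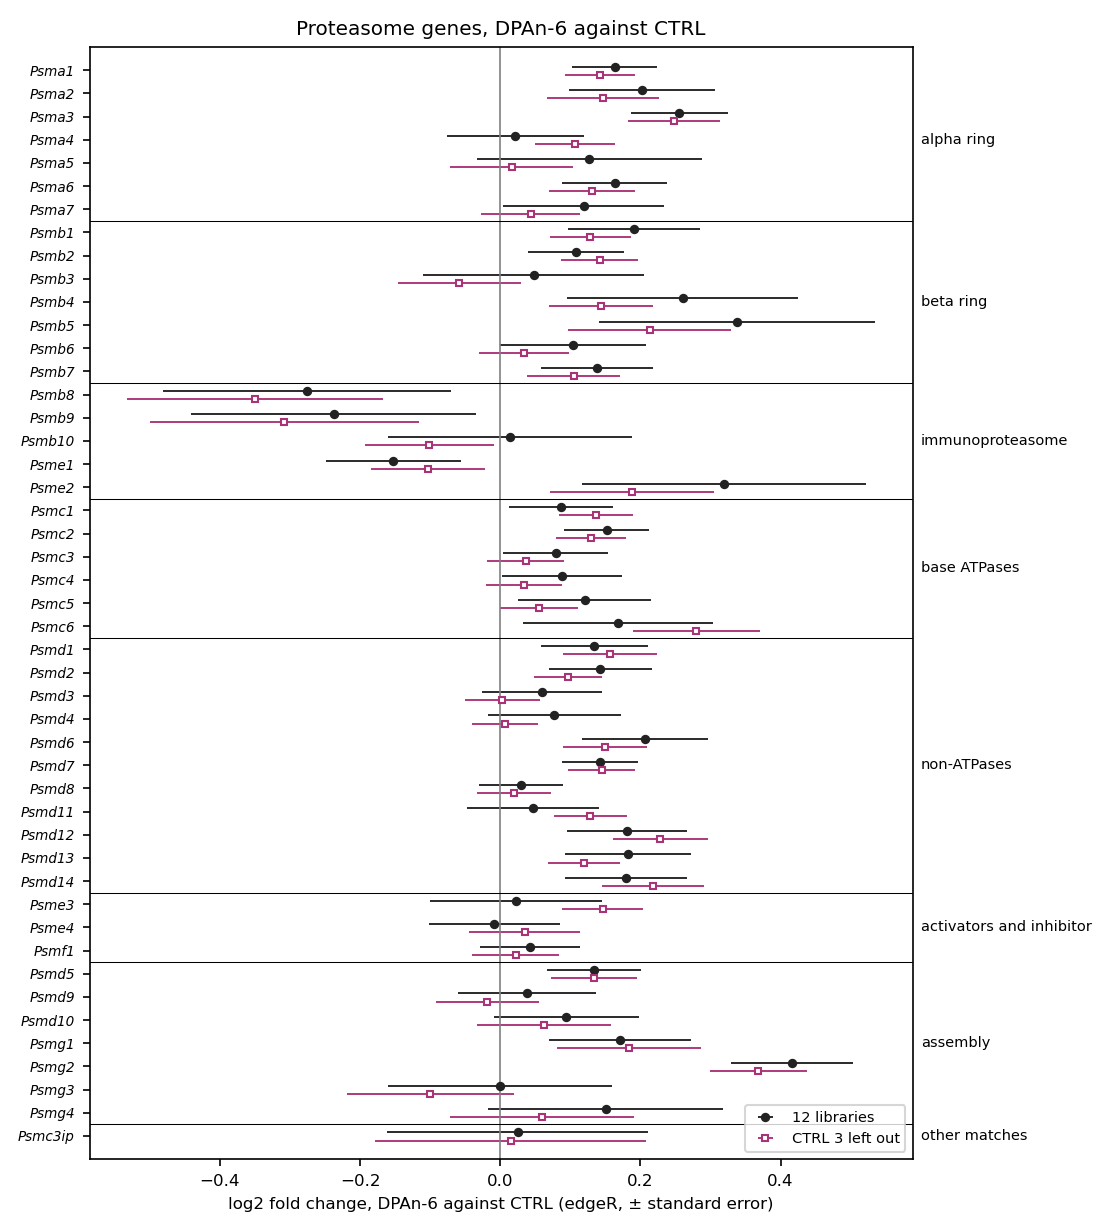
Log2 fold changes of DPAn-6 against CTRL are shown with standard errors for the 47 tested genes, by class, from all 12 libraries (filled circles) and with CTRL 3 left out (open squares). Core and regulatory genes lie mostly to the right of 0, with a median of 0.14, and Psmb8 and Psmb9 lie to the left.

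The gene that passed the test was Psmg2, on chromosome 18, which encodes an assembly chaperone of the alpha ring. Its log2 CPM was 3.38, 3.41, 2.94, 3.39, 3.35, 3.36 and 3.37 in CTRL 1 to 7, and 3.70, 3.71, 3.83, 3.76 and 3.80 in DPAn-6 1 to 5. Every DPAn-6 mouse was above every CTRL mouse, and the other 6 CTRL mice were close together while CTRL 3 was low. The log2 fold change was 0.42 (SE 0.09, edgeR adjusted p = 0.0286). Without CTRL 3 it was 0.37 with an edgeR adjusted p of 0.00585. A two-sided exact permutation test on the same mice, not adjusted over genes, gave p = 0.00126, the smallest that 7 against 5 mice allow. Psma3, which was not called with all mice, had the same exact p. The difference of mean log2 CPM of Psmg2 was 0.42 at 12 months and 0.44 at 14 months. The call was lost in 14 of the 27 other settings, among them the leaving out of any 1 of the 5 DPAn-6 mice, and the direction was kept in all 27.

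Psma3, an alpha ring subunit, had the next smallest p of the tested members. Its log2 CPM ran from 3.95 to 4.14 in CTRL, with a median of 4.03, and was 4.36, 4.22, 4.32, 4.40 and 4.30 in DPAn-6. The groups did not overlap, and the log2 fold change was 0.26 (SE 0.07, edgeR adjusted p = 0.0851; without CTRL 3, 0.25 and adjusted p = 0.0333). Psma1, also of the alpha ring, ran from 5.43 to 5.75 in CTRL (median 5.61) and was 5.77, 5.81, 5.81, 5.77 and 5.81 in DPAn-6. Its groups were separated by a narrow gap, and its log2 fold change was 0.16 (SE 0.06, edgeR adjusted p = 0.218). These 2 and Psmg2 were the 3 proteasome genes in which every DPAn-6 mouse lay above every CTRL mouse, which held for 1.73% of all genes. Without CTRL 3 there were 4, with the lid subunit Psmd12 added, against 2.75% of all genes.

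The other alpha ring genes had log2 fold changes from 0.02 (Psma4) to 0.20 (Psma2). Psma6 ran from 5.46 to 5.88 in CTRL (median 5.74) and was 6.002, 5.78, 5.90, 5.85 and 5.96 in DPAn-6 1 to 5, and the groups overlapped (log2 fold change 0.16, SE 0.08, edgeR adjusted p = 0.333). Median changes were 0.16 in the alpha ring, 0.14 in the beta ring, 0.10 in the base ATPases and 0.14 in the non-ATPases. The ATPase Psmc2 ran from 6.08 to 6.37 in CTRL (median 6.30) and was 6.48, 6.36, 6.41, 6.47 and 6.49 in DPAn-6 1 to 5 (log2 fold change 0.15, SE 0.06, edgeR adjusted p = 0.258). Only the lowest DPAn-6 mouse lay within the CTRL range. Psmd7, a lid subunit next to the deubiquitinase Psmd14, ran from 6.15 to 6.34 in CTRL (median 6.21) and was 6.45, 6.37, 6.43, 6.38 and 6.32 in DPAn-6 1 to 5 (log2 fold change 0.14, SE 0.05, edgeR adjusted p = 0.233). 4 of the 5 DPAn-6 values of Psmd7 were above all CTRL values. Psmd6, another lid subunit, ran from 5.02 to 5.64 in CTRL (median 5.55) and was 5.70, 5.59, 5.80, 5.74 and 5.66 in DPAn-6 1 to 5. Psmd12 ran from 5.40 to 5.97 in CTRL (median 5.75) and was 5.97, 5.90, 5.96, 6.05 and 5.91 in DPAn-6 1 to 5. Their log2 fold changes were 0.21 and 0.18, with edgeR adjusted p of 0.304 and 0.347. The highest Psmd12 value among CTRL mice was that of CTRL 3.

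The alternative activators Psme3 and Psme4 and the inhibitor Psmf1 had a median log2 fold change of 0.02 (0.03 without CTRL 3), which was not tested against that of the rings. Psme3, the nuclear activator, was highest in CTRL 3, and its log2 fold change was 0.02 with all libraries and 0.15 without CTRL 3. The assembly genes had a median of 0.13, from -0.0003 in Psmg3 to 0.42 in Psmg2; without CTRL 3 the median was 0.06 and 2 of 7 were below 0. The testis and thymus forms Psma8 and Psmb11 had 75 and 31 counts over all 12 libraries and were not tested, nor was Psme2b, with 95 counts. Psmc3ip, a meiotic recombination factor that the symbol rule also takes in, had a log2 fold change of 0.03.

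**Figure D3:**
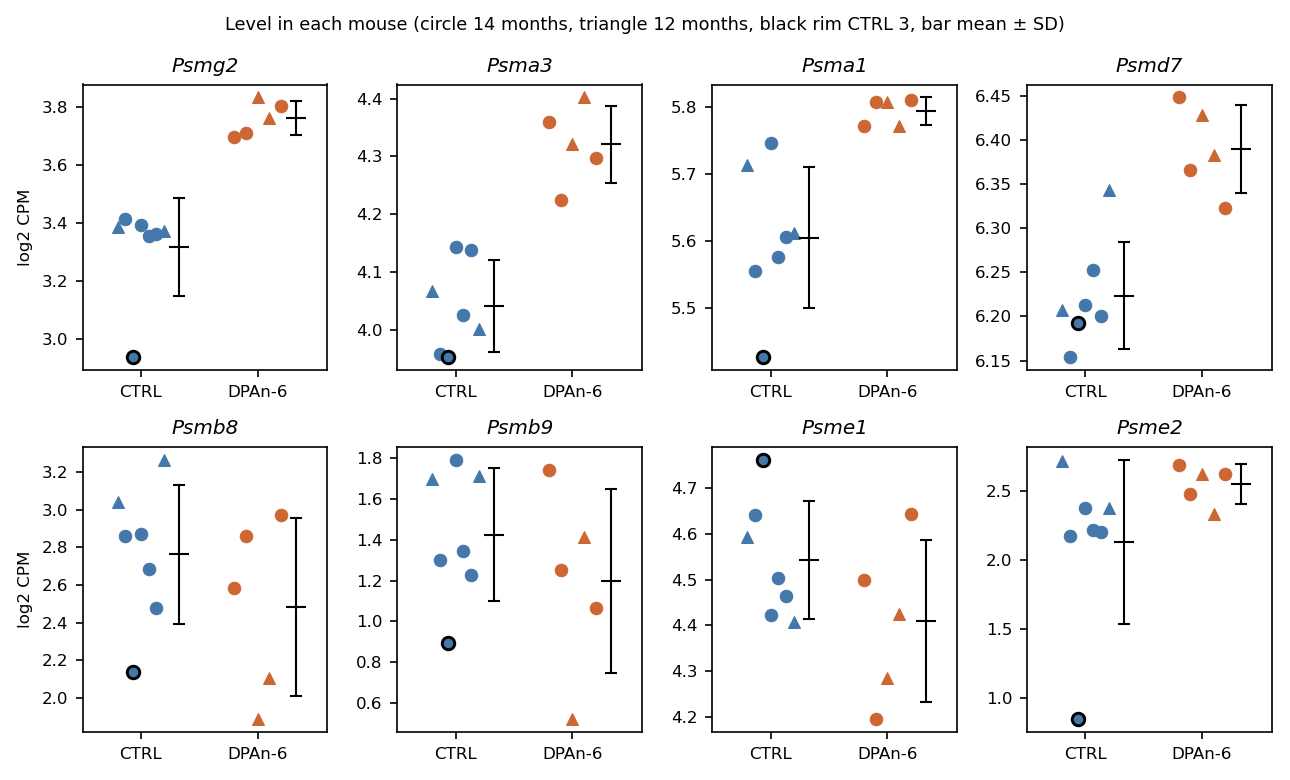
Log2 CPM in each mouse is shown for Psmg2, Psma3, Psma1, Psmd7, Psmb8, Psmb9, Psme1 and Psme2, with the mean and SD of each group beside the points. The vertical axes do not start at 0 and differ between panels. The groups are apart for Psmg2, Psma3 and Psma1 and overlap for the other 5, and the 2 lowest DPAn-6 values of Psmb8 are those of the 12-month mice.

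Levels were compared between genes as CPM per kilobase of exon, averaged over the 12 mice. The median was 16.5 in the core, from 4.60 (Psma3) to 45.0 (Psma6), and 24.7 in the regulatory particle, from 9.75 (Psmd11) to 94.96 (Psmc5). Immunoproteasome genes had a lower median of 2.91, from 0.70 in Psmb9 to 14.5 in Psmb10, the last within the range of the core. Assembly genes had a median of 6.05.

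The constitutive catalytic subunits did not pass the test. Psmb5, the chymotrypsin-like subunit, had log2 CPM of 3.69, 3.42, 2.37, 3.77, 3.78, 3.83 and 3.92 in CTRL 1 to 7 and 4.33, 3.74, 4.05, 3.61 and 4.004 in DPAn-6 1 to 5. CTRL 3 was far below the rest and the groups overlapped (log2 fold change 0.34, SE 0.20, edgeR adjusted p = 0.467; 0.21 without CTRL 3). Psmb6, the caspase-like subunit, ran from 5.26 to 6.09 in CTRL (median 5.85) and was 6.07, 5.86, 5.83, 5.92 and 6.06 in DPAn-6 1 to 5, with a log2 fold change of 0.10 (SE 0.10; 0.03 without CTRL 3). Psmb7, the trypsin-like subunit, ran from 5.55 to 6.01 in CTRL (median 5.87) and was 5.98, 5.88, 5.995, 6.01 and 6.01 in DPAn-6 1 to 5, with a log2 fold change of 0.14 (SE 0.08). In both genes every DPAn-6 value lay within the CTRL range.

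The immunoproteasome genes differed in direction among themselves. Their median log2 fold change was -0.15, with 2 of 5 above 0; in 14-month mice alone it was 0.17 with 4 of 5 above 0, and 0.02 with 3 of 5 when CTRL 3 was left out too. With all mice 0 passed the edgeR test at an adjusted or an unadjusted p of 0.05, nor did any in limma-voom or DESeq2. Psmb8 had log2 CPM of 3.04, 2.86, 2.14, 2.87, 2.69, 2.48 and 3.27 in CTRL 1 to 7 and 2.59, 2.86, 1.89, 2.11 and 2.97 in DPAn-6 1 to 5. The groups overlapped, with a log2 fold change of -0.28 (SE 0.21, edgeR adjusted p = 0.602), and it was -0.35 without CTRL 3. Psmb9 rests on few reads, 28 to 61 counts a library, and ran from 0.89 to 1.79 in CTRL (median 1.34) and was 1.74, 1.25, 0.52, 1.41 and 1.07 in DPAn-6 (log2 fold change -0.24, SE 0.20). Its exons overlap those of Tap1 on the opposite strand over 212 bases, and the strand setting of the counting is not given in the sources used here. The same limit holds for Psmb8, which overlaps Gm20496 over 498 bases, and for Psmb7, which overlaps Nek6 over 405 bases. Psmb5 overlaps the microRNA gene Mir686 on its own strand, over 109 bases or 12.1% of its exons. Psmb10 ran from 3.52 to 4.89 in CTRL (median 4.68) and was 4.78, 4.55, 4.53, 4.48 and 4.87 in DPAn-6 1 to 5 (log2 fold change 0.01, SE 0.17; -0.10 without CTRL 3, whose value was the lowest). Psme1 ran from 4.41 to 4.76 in CTRL (median 4.504) and was 4.5005, 4.19, 4.28, 4.42 and 4.64 in DPAn-6 (log2 fold change -0.15, SE 0.10). Psme2 went the other way, with 0.84 in CTRL 3, 2.18 to 2.72 in the other CTRL mice and 2.69, 2.48, 2.62, 2.33 and 2.62 in DPAn-6 1 to 5 (CTRL median 2.21). Its log2 fold change was 0.32 (SE 0.20; 0.19 without CTRL 3).

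The difference between the treatment groups varied with age more for Psmb8 than for any other tested proteasome gene. DPAn-6 minus CTRL, as a difference of mean log2 CPM, was -1.16 at 12 months (2 mice against 2) and 0.20 at 14 months (3 against 5). The interaction of treatment with age was -1.33 on the log2 scale (SE 0.29), with an edgeR adjusted p of 0.516. Of the 47 genes, 0 passed the adjusted threshold, against 0.00637% of all genes. Psmb8 was the 1 gene with an unadjusted p below 0.05, in the direction that 2.47% of all genes had. Within the 12-month mice, treatment and the level of Xist cannot be told apart: Xist, transcribed from the inactive X chromosome, had log2 CPM of 9.65 and 9.42 in the 12-month CTRL mice and 2.07 and 1.48 in the 12-month DPAn-6 mice. With Xist as a covariate, the log2 fold change of Psmb8 over all mice was -0.32 (edgeR adjusted p = 0.461).

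The ratio of each immunoproteasome subunit to the constitutive subunit whose place it takes does not depend on the scaling of a library. The log2 ratio of Psmb8 to Psmb5 counts was -0.65, -0.56, -0.24, -0.90, -1.09, -1.35 and -0.65 in CTRL 1 to 7 and -1.75, -0.88, -2.17, -1.50 and -1.03 in DPAn-6 1 to 5. The ratio was under the CTRL mean in each of the 5 DPAn-6 mice, although the groups overlapped. The difference was -0.69 (95% interval -1.27 to -0.13), with a two-sided exact permutation p of 0.024 and, adjusted over the 3 ratios, 0.072, so that it did not pass. Without CTRL 3 the difference was -0.60, with an exact p of 0.0455 and 0.136 after adjustment. In 14-month mice alone it was -0.39 (exact p = 0.321). Per kilobase of exon, Psmb8 stood at 15.9% ± 3.99 of Psmb5 in CTRL (SD, n = 7) and at 10.1% ± 3.54 in DPAn-6 (SD, n = 5). These shares depend on the length used. All exons merged span 3381 bases in Psmb8, whose longest transcript has 1907, and 899 bases in Psmb5, as does its longest transcript.

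The log2 ratio of Psmb9 to Psmb6 was -4.38 ± 0.24 in CTRL and -4.75 ± 0.40 in DPAn-6 (SD), a difference of -0.37 (95% interval -0.78 to 0.03, exact p = 0.0694, adjusted 0.104). The ratio of Psmb10 to Psmb7 was -1.25 ± 0.43 and -1.34 ± 0.17, a difference of -0.08 (95% interval -0.52 to 0.38, exact p = 0.701). All 3 differences were below 0, and none passed after adjustment over the 3.

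**Figure D4:**
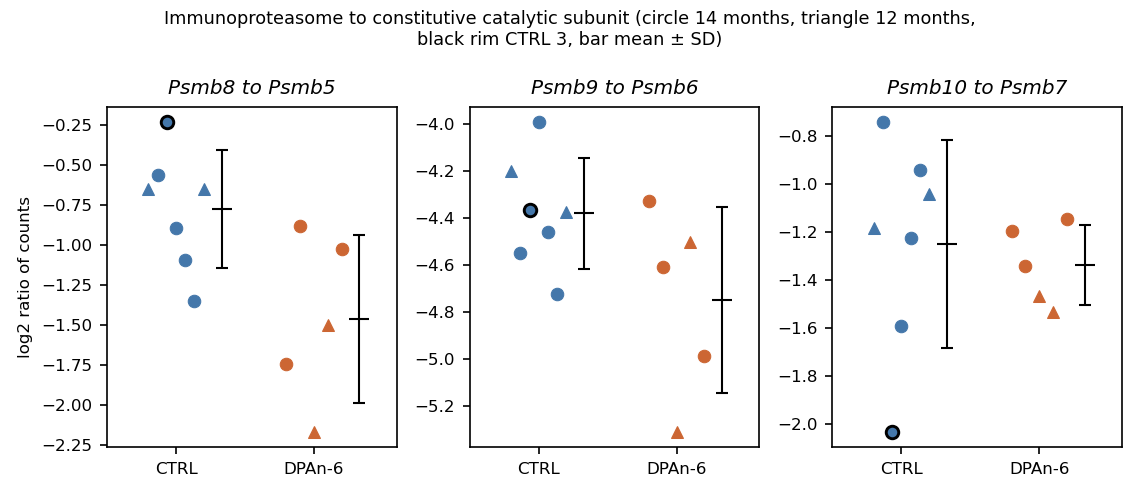
The log2 ratio of counts of each immunoproteasome subunit to its constitutive counterpart is shown for every mouse, with the mean and SD of each group. The axes differ between panels and do not start at 0. The Psmb8 to Psmb5 ratio is lower in DPAn-6 by 0.69 on average, with overlapping groups, and CTRL 3 has its highest value.

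Genes that work with the proteasome were described from a list of 43 genes present in the table, all tested, of which 0 passed the adjusted threshold in edgeR, limma-voom or DESeq2; in edgeR 2 were higher and 4 lower at an unadjusted p below 0.05, where 5.51% of all genes were higher and 9.02% lower. Without CTRL 3 there were 6 and 7, against 10.7% and 12.5% of all genes. Among subunits and assembly factors with other symbols, 7 of 8 had a log2 fold change above 0, and those with the smallest p were the core maturation factor Pomp (0.14, SE 0.07) and Akirin2, which brings proteasomes into the nucleus (0.14, SE 0.08). Nfe2l1 was at -0.01 (SE 0.06; -0.05 without CTRL 3), and Nfe2l2, which drives antioxidant genes, was at -0.39 (SE 0.13, edgeR adjusted p = 0.179). Of the shuttle and unfolding factors 9 of 10 were above 0, and those with the smallest p were Sqstm1 (0.16, SE 0.09; 0.09 without CTRL 3) and Ubqln4 (0.07, SE 0.06). Among the ubiquitin genes, Ubb, which encodes ubiquitin, had a log2 fold change of 0.13 (SE 0.06, edgeR adjusted p = 0.329). On the interferon and class I presentation side, 11 of 12 were below 0 with a median of -0.18, among them the class I heavy chain H2-K1 (-0.39, SE 0.13) and the transcription factor Irf8 (-0.39, SE 0.13), with edgeR adjusted p of 0.165 and 0.166.

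Log2 fold changes of cell type markers are given beside these results, and the part of cell types in the proteasome values was not tested. In bulk cortex, fewer cells of a type and less RNA per cell cannot be told apart. All 10 microglial markers had a log2 fold change below 0 and 4 were called lower, where 1.14% of all genes were, with a summed level of 1047 to 1583 CPM in CTRL and 712 to 1023 in DPAn-6. All 8 neuronal markers were above 0 (7 of 8 without CTRL 3), from 0.0003 in Slc17a7 to 0.19 in Gad1, with a median of 0.11. Of the oligodendrocyte markers 5 of 6 were above 0 (6 of 6 without CTRL 3), with a median of 0.27. All 4 choroid plexus markers tested were below 0, with a sum of 12.7 to 1662 CPM in CTRL and 7.51 to 22.9 in DPAn-6. Of 10 interferon-stimulated genes outside the proteasome, 8 were below 0 with a median of -0.17; without CTRL 3, 6 were, with a median of -0.10. Of the astrocyte markers 5 of 6 were below 0 (3 of 6 without CTRL 3), of the endothelial markers 3 of 5 and of the blood markers 4 of 4, with medians of -0.11, -0.08 and -0.25.

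The spread between control mice depended on CTRL 3. For the core rings alone, the median SD of log2 CPM was 0.248 in CTRL, 0.127 without CTRL 3 and 0.0863 in DPAn-6. Over all genes tested the median SD fell in the same order, at 0.249, 0.161 and 0.129. Across the 47 genes, the deviation in CTRL 3 had a Pearson correlation of -0.47 with GC content, as a description of 1 library whose genes are not independent. A correlation of this size was not particular to CTRL 3. In the other libraries it ran from -0.49 (DPAn-6 4) to 0.54 (CTRL 2). What set CTRL 3 apart was its slope over all genes, -0.50 for each 10 percentage points of GC. Elsewhere the slope ran from -0.13 (DPAn-6 4) to 0.20 (CTRL 2). Proteasome transcripts are short, with a median of 1895 bases against 3352 over all genes tested, and have the same median GC content of 49.7%. After removal of length and GC trends from every library, 30 of the 31 core and regulatory genes were above 0 with a median of 0.13, and 14 of the 47 genes were higher at an unadjusted p below 0.05, against 10.4% of all genes.

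**Figure D5:**
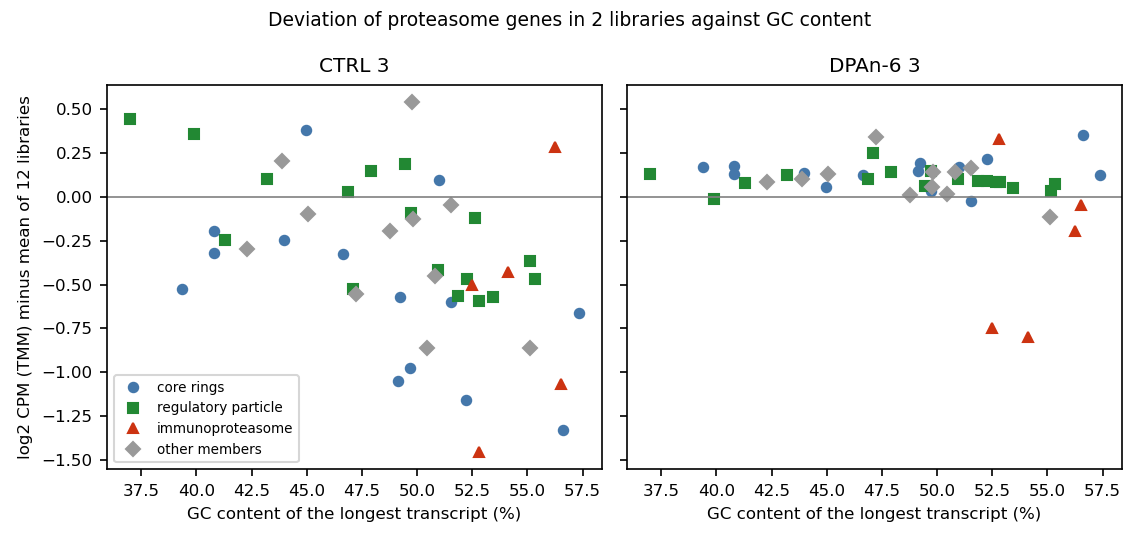
The deviation of each proteasome gene from its mean over 12 libraries (log2 CPM, TMM-scaled) is plotted against the GC content of its longest transcript, in CTRL 3 and, for comparison, in DPAn-6 3. Genes of high GC content lie lowest in CTRL 3 (r = -0.47, n = 47 genes), and in DPAn-6 3 (r = -0.23) the lowest are Psmb8 and Psmb9. Over the 12 libraries r ran from -0.49 in DPAn-6 4 to 0.54 in CTRL 2.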

How the data were processed

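RNA was taken from cortex and poly(A)-selected libraries were made with a KAPA mRNA kit. The authors aligned reads with STAR 2.5.3a (per the labels) to GRCm38 and deposited raw counts per gene, without normalization; the strand setting is not given in the sources used here. From these, log2 CPM was computed with the total on genes as library total and 0.5 added to each count. The test was edgeR 4.0.16 under R 4.3.3 (TMM, filterByExpr by group, quasi-likelihood test, no covariate), adjusted by Benjamini-Hochberg over all 15688 genes tested. Single genes and ratios were tested by two-sided exact permutation over 792 splits of the mice.

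The members, the partner lists and the markers were chosen with earlier results of these data known. Values of every mouse (CTRL mice as lowest, median and highest where not listed) were shown for Psmb5 to Psmb10, Psme1, Psme2 and the 8 other members that were called or had the smallest p; partner genes were named by the 2 smallest p in each role, except 1 that is not reported here. Alternatives were limma-voom (limma 3.58.1, the method of the study), DESeq2 1.42.0, no TMM, 2 other filters, a covariate (age, Xist or Ttr), the 14-month mice alone, a block on replicate numbers, removal of length and GC trends, a pseudocount of 2 and each mouse left out. Leaving out CTRL 2 and 3 together, and CTRL 3 with the Ttr or 14-month settings, was added after seeing the data, as was the trend removal for ratios. On simulated counts for this comparison, with 200 genes of about 15568 changed by 1 on the log2 scale, edgeR recovered 86.9% with 4.45% false calls. Genes were simulated independently, without a GC trend in any library, and the change was larger than that of any proteasome gene. These rates therefore do not describe the calls for the proteasome genes. Positions, lengths and exon overlaps came from GENCODE M21 (GRCm38), where 50339 of 50563 identifiers matched; 12 members overlap exons of a gene on the opposite strand.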

Additional observations from a re-analysis of the deposited data

Results flagged for a closer look

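In 38 sets of values, 1 for each group of a described gene or ratio, 6 had an end value far from the others by Dixon's test at the 95% level; chance gives about 1 in 20. In the CTRL group, CTRL 3 was the lowest at 2.37 log2 CPM for Psmb5 (others 3.42 to 3.92), 5.26 for Psmb6 (others 5.79 to 6.09), 3.52 for Psmb10 (others 4.42 to 4.89), 0.84 for Psme2 (others 2.18 to 2.72) and 2.94 for Psmg2 (others 3.35 to 3.41). In the DPAn-6 group, DPAn-6 2 was the lowest at 5.88 log2 CPM for Psmb7 (others 5.98 to 6.01). Over all tested proteasome genes, CTRL 3 stood apart in this way within CTRL for 16.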

How the results depend on the processing

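The upward median of the core and regulatory particle stayed above 0 in every setting run, from 0.066 (Ttr as covariate, CTRL 3 left out) to 0.18. It was between 0.12 and 0.17 when 1 mouse was left out. No setting took the 12-month mice alone (2 mice against 2). At that age the differences of mean log2 CPM of these genes lay on both sides of 0, from -0.14 in Psma7 to 0.35 in Psmc6. The count of members called higher, 1 with all mice, was 0 in 14-month mice (with or without CTRL 3), with Ttr as covariate (with or without CTRL 3), with no filter on low counts, and with the replicate block (with or without trend removal), 2 by DESeq2, and 0 to 2 when 1 mouse was left out. Members higher at an unadjusted p below 0.05, 7 with all mice, were 2 in 14-month mice and 11 when CTRL 3 was left out too, 2 with Ttr and 3 when CTRL 3 was left out too, 14 with length and GC trends removed and 11 with that and the block, 11 without CTRL 2 and 3, and 5 to 18 when 1 mouse was left out, the 18 being without CTRL 3. Over all genes the share higher was 5.51% with all mice, and in these settings 3.598%, 7.26%, 2.07%, 4.91%, 10.4%, 8.99%, 8.94% and, with 1 mouse left out, 4.23% to 10.7%. Partner genes higher at an unadjusted p below 0.05, 2 with all mice, were 4 in 14-month mice without CTRL 3, 0 with Ttr (with or without CTRL 3), 1 with age, 6 with trends removed (with or without the block), 1 with no filter, 4 with the replicate block and 0 to 6 when 1 mouse was left out; those lower, 4 with all mice, were 0 in 14-month mice (with or without CTRL 3), 2 with Ttr, 7 without CTRL 2 and 3, and 3 to 7 when 1 mouse was left out. For these settings, the share of all genes higher was 4.81% with age, 4.05% with no filter and 5.36% with the replicate block. The share of all genes lower was 9.02% with all mice, 5.36% in 14-month mice and 8.23% when CTRL 3 was left out too. It was 4.33% with Ttr, 10.98% without CTRL 2 and 3, and 6.84% to 12.5% with 1 mouse left out. The immunoproteasome median of -0.15 became 0.17 in 14-month mice. The cause of these moves was not tested.

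The Psmb8 to Psmb5 difference ran from -0.83 to -0.51 when 1 mouse was left out, and its adjusted exact permutation p fell to 0.0455 without CTRL 6 (-0.78) and 0.0364 without DPAn-6 2 (-0.83). Psmb9 to Psmb6 ran from -0.47 to -0.23, and Psmb10 to Psmb7 from -0.22 to -0.0004. Psmb10 to Psmb7 turned to 0.080 in 14-month mice and to 0.019 with the replicate block, and with trends removed was -0.14 (exact p = 0.0429, adjusted 0.0644).

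Among single genes, fold changes turned for Psmb8 to 0.17 in 14-month mice (difference of mean log2 CPM 0.20) and 0.082 when CTRL 3 was left out too, for Psmb9 to 0.011 in 14-month mice (difference of means 0.040), for Psmb6 to -0.019 and Psme1 to 0.0039 with Ttr and without CTRL 3, and for Psmb10 to -0.024 with Ttr, -0.080 with Ttr and without CTRL 3, and -0.086 without CTRL 2 and 3; with 1 mouse left out it ran from -0.10 (without CTRL 3) to 0.070, and its difference of means from -0.088 (without CTRL 3) to 0.14. Replicate numbers did not pair the mice: same-numbered mice had correlations of deviations from -0.12 to 0.22, and under the replicate block Psmg2 had an edgeR adjusted p of 0.185. Over all genes 243 were called with all mice and 953 without CTRL 3. Depth limits Psmb9, with 28 to 61 counts a library.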
